A study of Rattus norvegicus with 6 samples.

Results

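The genes described are 39 genes of mitochondrial fatty acid oxidation and fatty acid handling, chosen by gene symbol from the 40456 genes of a count table. They were followed in H9c2 (2-1) cells, a clonal line of cardiomyoblasts from embryonic rat heart labelled WT, after knockdown of the long non-coding RNA Tug1. All cells had been held for 5 days in medium with 1% serum and daily 1 µM retinoic acid, which moves this line away from proliferation. One group of 3 libraries received a negative control gapmer and the other group of 3 libraries received a Tug1 gapmer, both at 25 nM for 24 h. A gapmer is an antisense oligonucleotide with locked nucleic acid ends and a DNA centre that recruits RNase H to its target RNA. The labels do not say whether the libraries of a group came from separate cultures, so the p-values measure the spread between these libraries, which may be technical.

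Fatty acids enter a cell through membrane transporters, are carried by binding proteins and are joined to coenzyme A by acyl-CoA synthetases. Carnitine palmitoyltransferases then move long acyl chains into the mitochondrial matrix, where cycles of dehydrogenation, hydration, a further dehydrogenation and thiolysis shorten them and pass electrons to the respiratory chain. Heart muscle draws most of its energy from this route, and the PPAR nuclear receptors are its textbook transcriptional regulators.

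The treatment and the comparison agent differ only in the oligonucleotide, and their sequences, 5′ to 3′, are shown because they define the groups.
Tug1 gapmer: attcagtagacagcta
Negative control gapmer: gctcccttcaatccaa

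Among the members, Hadha and Hadhb are neighbours read in opposite directions away from a short stretch between them. The stretch between these gene models is shown because their transcripts rose together (values follow). It is 243 bases long on the RefSeq rat assembly GRCr8, at chr6:31907558-31907800, and is written on the plus strand, on which Hadha is read. Capitals mark its single GC box (GGGCGG, here on the opposite strand).
Hadhb to Hadha: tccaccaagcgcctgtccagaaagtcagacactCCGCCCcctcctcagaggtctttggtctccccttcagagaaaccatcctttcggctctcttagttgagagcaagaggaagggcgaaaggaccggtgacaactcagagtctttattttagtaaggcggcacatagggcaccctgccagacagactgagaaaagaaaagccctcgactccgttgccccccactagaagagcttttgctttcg

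Total counts ran from 12978548 to 13544337 per library, and 1 CPM, the usual unit of counts scaled to library size, corresponded to 12.9 to 13.8 counts. Tug1 itself stood at 54.7, 52.0 and 55.4 CPM in control libraries 1 to 3 and at 11.9, 11.2 and 12.5 CPM in knockdown libraries 1 to 3, which is 22.0% of the control level. Group differences are log2 fold changes of Tug1 gapmer over control gapmer from edgeR's quasi-likelihood test, with p-values adjusted over all 14216 tested genes by the Benjamini-Hochberg method, and a gene is called changed at an adjusted p under 0.05. The labels call the cells cardiomyocytes. Of 10 cardiomyocyte markers, 4 (Myh6, Myh7, Nppb and Ryr2) had at most 3 counts in every library, while Tnnt2 was abundant. The summed level of 8 skeletal myotube markers was 853 to 867 CPM in the controls and 1290 to 1380 CPM after knockdown. Of the 8, 7 were called higher and 0 lower. Most tested genes, 61.7%, were called changed, with 30.8% of all tested genes higher and 30.9% lower. The cardiomyocyte sum was 337 to 372 CPM in controls and 394 to 443 CPM after knockdown. It was almost all Tnnt2, at 342, 335 and 369 CPM in control libraries 1 to 3 and 439, 391 and 402 CPM in knockdown libraries 1 to 3. Of the 10 markers 3 were tested: Tnnt2 and Myl2, the latter at 5 to 25 counts, were called higher, and Actn2 was not called. Myl2 had 8, 8 and 5 counts in controls and 25, 14 and 13 counts after knockdown. It thus reached the expression filter's minimum count of 10 only after knockdown, which limits what its call can show. Summed markers also lay higher in every knockdown library than in every control for smooth muscle (686 to 744 against 835 to 960 CPM, 3 of 4 called higher), macrophages (10.6 to 12.2 against 15.4 to 17.6 CPM, with Ptprc and Adgre1 at 0) and hepatocytes (0.697 to 0.925 against 1.33 to 1.81 CPM, with Alb and Fgb at 0), while those of endothelial cells and fibroblasts overlapped. In these bulk libraries more cells of a type and more RNA per cell cannot be told apart, and the part of these marker genes' cell types in the values that follow was not tested.

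After Tug1 knockdown more members were higher than lower. By role, 3 of 6 acyl-CoA dehydrogenases, 3 of 5 genes of the hydratase, hydroxyacyl-CoA dehydrogenase and thiolase steps, 3 of 3 electron transfer genes and 4 of 5 acyl-CoA synthetases were called higher, and 3 of 4 tested genes of fatty acid uptake and binding were called lower. Differences between roles were not tested. Of the 39 members, 37 passed the expression filter, and 28 of these (75.7%) were called changed, against 61.7% of all tested genes. Among the tested members 20 (54.1%) were higher and 8 (21.6%) lower, where 30.8% of all tested genes were higher and 30.9% lower. Control and knockdown libraries did not overlap for 30 tested members (81.1%), against 65.6% of all tested genes. The median log2 fold change of the tested members was 0.20, beside 0.00 for all tested genes. For size, 11 members (29.7%) were called at a log2 fold change of 0.5 or more in either direction, 7 higher and 4 lower, against 31.0% of all tested genes (15.9% higher and 15.1% lower). At a log2 fold change of 1 or more in either direction there were 3 members, Ppard higher and Acsl6 and Fabp5 lower, where 9.80% of all tested genes reached that size. Acsl6 and Fabp5 reached the filter's minimum count of 10 only in the control libraries. They thus entered the test through the group where they were high, which limits what their calls as lower can show. Cd36 and Fabp4 were the 2 members left untested.

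**Figure D1:**
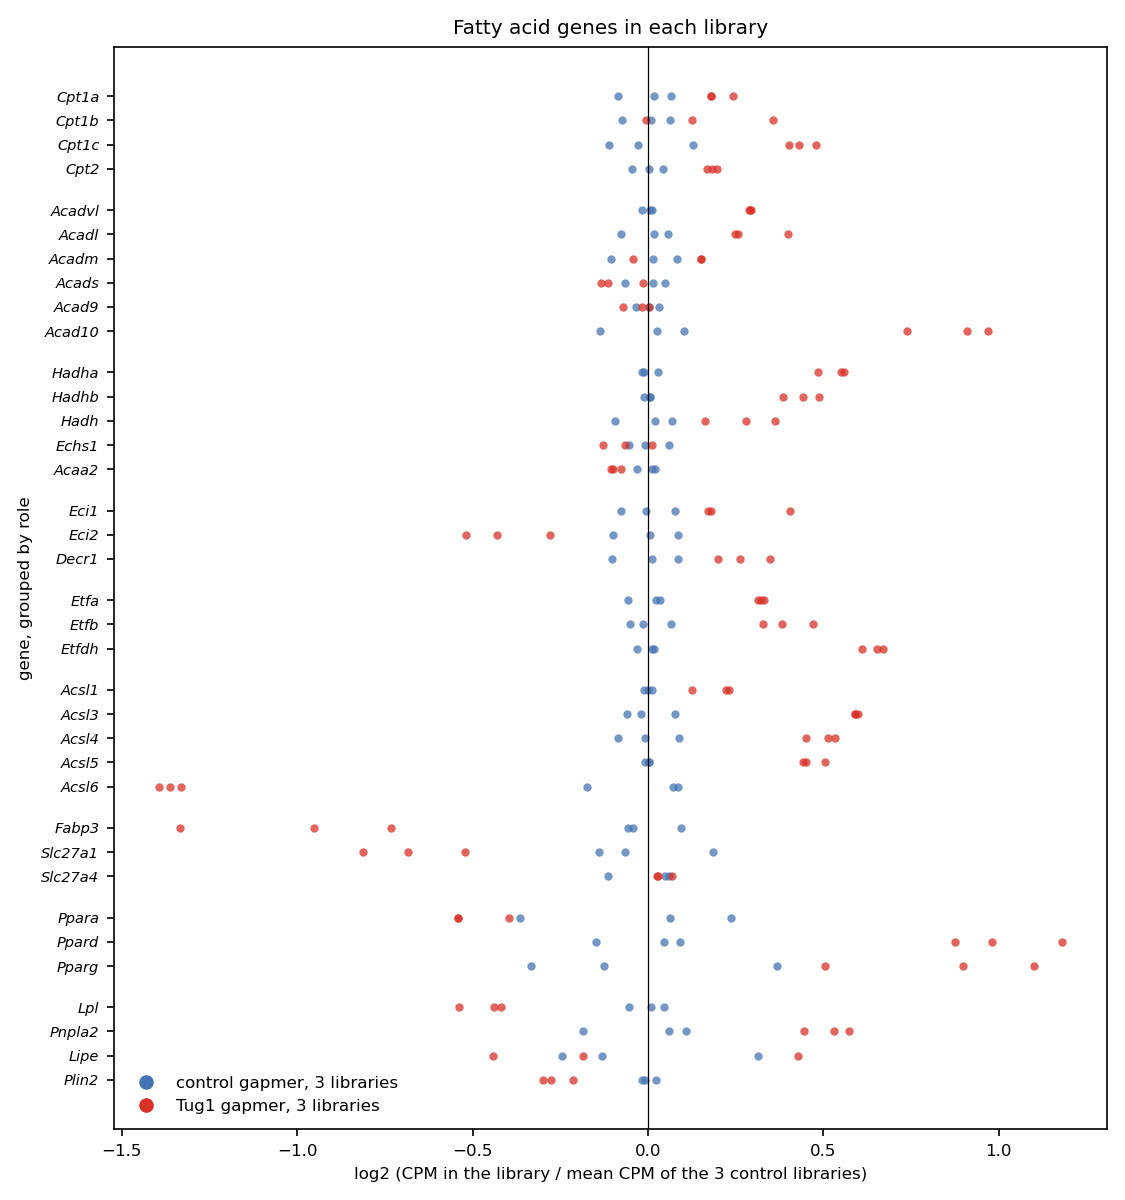
Each point is 1 library. The x axis gives log2 of its CPM over the mean CPM of the 3 control libraries, and genes are grouped on the y axis by role. Fabp5 (0 counts in 2 knockdown libraries), Cd36 and Fabp4 are not drawn. For 29 of the 36 genes drawn, the red Tug1 gapmer points do not overlap the blue control points. Across all tested genes, the groups do not overlap for 65.6%.

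The carnitine palmitoyltransferases hold the entry to the matrix. Cpt1a, the isoform typical of liver and of fetal heart, had 110, 122 and 118 CPM in control libraries 1 to 3 and 132, 138 and 132 CPM in knockdown libraries 1 to 3. Every knockdown library lay above every control library, and the log2 fold change was 0.20 (standard error 0.0526, adjusted p 0.00195 in edgeR). The rise did not pass once a trend with gene length was removed from each library (0.08, adjusted p 0.185), and the RefSeq gene table lists a gene with a related name, Cpt1al1. Cpt1b, the muscle isoform, had 10.1, 11.1 and 10.7 CPM in controls and 11.6, 13.6 and 10.6 CPM after knockdown. These groups overlapped, and its log2 fold change of 0.17 (standard error 0.119, adjusted p 0.235 in edgeR) did not pass, and was 0.0638 without knockdown replicate 2. Cpt1c, the neuronal isoform with low enzyme activity, rose from 23.8 ± 2.04 to 32.2 ± 0.837 CPM (SD, n = 3; log2 fold change 0.44, adjusted p 5.3e-05 in edgeR). Cpt2, which rebuilds acyl-CoA on the matrix side, had 18.0, 18.5 and 17.4 CPM in controls and 20.2, 20.6 and 20.4 CPM after knockdown. Its groups did not overlap, but its log2 fold change of 0.18 (standard error 0.0858) did not pass (adjusted p 0.0689 in edgeR); it passed with the length trend removed (0.22, adjusted p 0.0279) and when libraries were scaled by their totals instead of TMM, the scaling used otherwise (0.24, adjusted p 0.0209).

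Acyl-CoA dehydrogenases carry out the first oxidation of each cycle and differ in the chain length they accept. The long-chain enzymes rose slightly. Acadvl had 37.0, 36.3 and 36.9 CPM in controls and 45.0, 44.8 and 44.9 CPM after knockdown, with replicates closer to each other than for most members. Its log2 fold change was 0.29 (standard error 0.0638, adjusted p 0.000453 in edgeR). Acadl had 49.2, 46.1 and 50.6 CPM in controls and 58.1, 64.1 and 57.7 CPM after knockdown, a rise of 0.30 on the log2 scale (standard error 0.0636, adjusted p 0.000258 in edgeR). The medium- and short-chain enzymes did not pass. For Acadm, the medium-chain enzyme, controls had 48.7, 52.9 and 55.5 CPM and knockdown libraries 58.1, 58.1 and 50.8 CPM, and the third knockdown library lay among the controls (log2 fold change 0.09, adjusted p 0.261 in edgeR). Acads, the short-chain enzyme, was at -0.09 (adjusted p 0.187) and Acad9, also an assembly factor of respiratory complex I, at -0.03 (adjusted p 0.758).

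Acad10, a less studied member of the dehydrogenase family, moved furthest in it. It had 20.0, 21.1 and 17.9 CPM in controls and 32.8, 36.9 and 38.5 CPM after knockdown. The groups were well apart, and the log2 fold change was 0.87 (standard error 0.0855, adjusted p 7.37e-09 in edgeR), a level 1.83 times the control level. Across the 16 alternatives its log2 fold change ran from 0.80 to 0.94.

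The mitochondrial trifunctional protein, which joins hydratase, hydroxyacyl-CoA dehydrogenase and thiolase activities for long chains, is built from the products of Hadha and Hadhb, whose shared upstream stretch is printed above. Hadha had 211, 212 and 218 CPM in controls and 299, 313 and 315 CPM after knockdown, a log2 fold change of 0.53 (standard error 0.0446, adjusted p 5.86e-10 in edgeR). Hadhb had 326, 322 and 326 CPM in controls and 424, 455 and 441 CPM after knockdown, a log2 fold change of 0.44 (standard error 0.0433, adjusted p 8.15e-09 in edgeR). Both subunit genes were higher in every knockdown library than in every control library. The log2 ratio of Hadha to Hadhb counts within a library was -0.60 ± 0.0251 in controls and -0.51 ± 0.0269 after knockdown (SD, n = 3), a difference of 0.09 with an exact permutation p of 0.1 (two-sided, adjusted p 0.2 over 4 ratios), the smallest that 3 against 3 libraries can give.

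The enzymes that act on medium and short chains behaved less uniformly. Hadh, the hydroxyacyl-CoA dehydrogenase for shorter chains, rose from 18.2 ± 1.03 to 21.9 ± 1.48 CPM (SD, n = 3; log2 fold change 0.27, adjusted p 0.0125 in edgeR). That call was lost without knockdown replicate 1 (adjusted p 0.0634), without control replicate 2 (adjusted p 0.0608) and with the length trend removed (adjusted p 0.0535). Echs1, the short-chain hydratase, had a log2 fold change of -0.06 (adjusted p 0.365), and Acaa2, the last thiolase of the spiral, of -0.09 (adjusted p 0.126). Neither passed, although the 3 knockdown libraries of Acaa2, at 80.6 to 82.2 CPM, lay below the control libraries at 84.8 to 87.9 CPM.

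Unsaturated chains need an isomerase or a reductase to enter the spiral, and all 3 such members were called, where 61.7% of all tested genes were. Eci1, the main mitochondrial enoyl-CoA isomerase, rose from 27.2 ± 1.48 to 32.5 ± 3.08 CPM (SD, n = 3; log2 fold change 0.26, adjusted p 0.00889 in edgeR), a call lost without knockdown replicate 2 (adjusted p 0.0805). Decr1, the dienoyl-CoA reductase, rose from 31.0 ± 1.98 to 37.4 ± 1.94 CPM (SD, n = 3; 0.27, adjusted p 0.00283 in edgeR). Eci2, an isomerase found in mitochondria and peroxisomes, went the other way, from 52.3 ± 3.38 to 39.4 ± 3.34 CPM (SD, n = 3; -0.41, standard error 0.0716, adjusted p 3.6e-05 in edgeR). The RefSeq gene table lists a pseudogene each for Eci2, Decr1 and Acadvl, and how reads shared with them were counted was not given in the sources used here.

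Electrons from every acyl-CoA dehydrogenase pass through the electron transfer flavoprotein, made of the Etfa and Etfb subunits, to its ubiquinone oxidoreductase, encoded by Etfdh. All 3 genes rose, where 30.8% of all tested genes were called higher. Etfdh had 33.2, 34.3 and 34.2 CPM in controls and 53.9, 53.3 and 51.7 CPM after knockdown, with a gap between the groups many times the spread within them. Its log2 fold change was 0.64 (standard error 0.0635, adjusted p 8.34e-09 in edgeR). Etfa rose from 53.2 ± 1.78 to 66.5 ± 0.412 CPM (SD, n = 3; log2 fold change 0.32, adjusted p 3.88e-05 in edgeR, and 0.21 with the length trend removed) and Etfb from 24.8 ± 1.03 to 32.6 ± 1.60 CPM (SD, n = 3; 0.39, adjusted p 0.000105 in edgeR). The log2 ratio of Etfa to Etfb differed between groups by -0.07 (exact permutation p 0.3, two-sided, adjusted p 0.4 over 4 ratios).

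**Figure D2:**
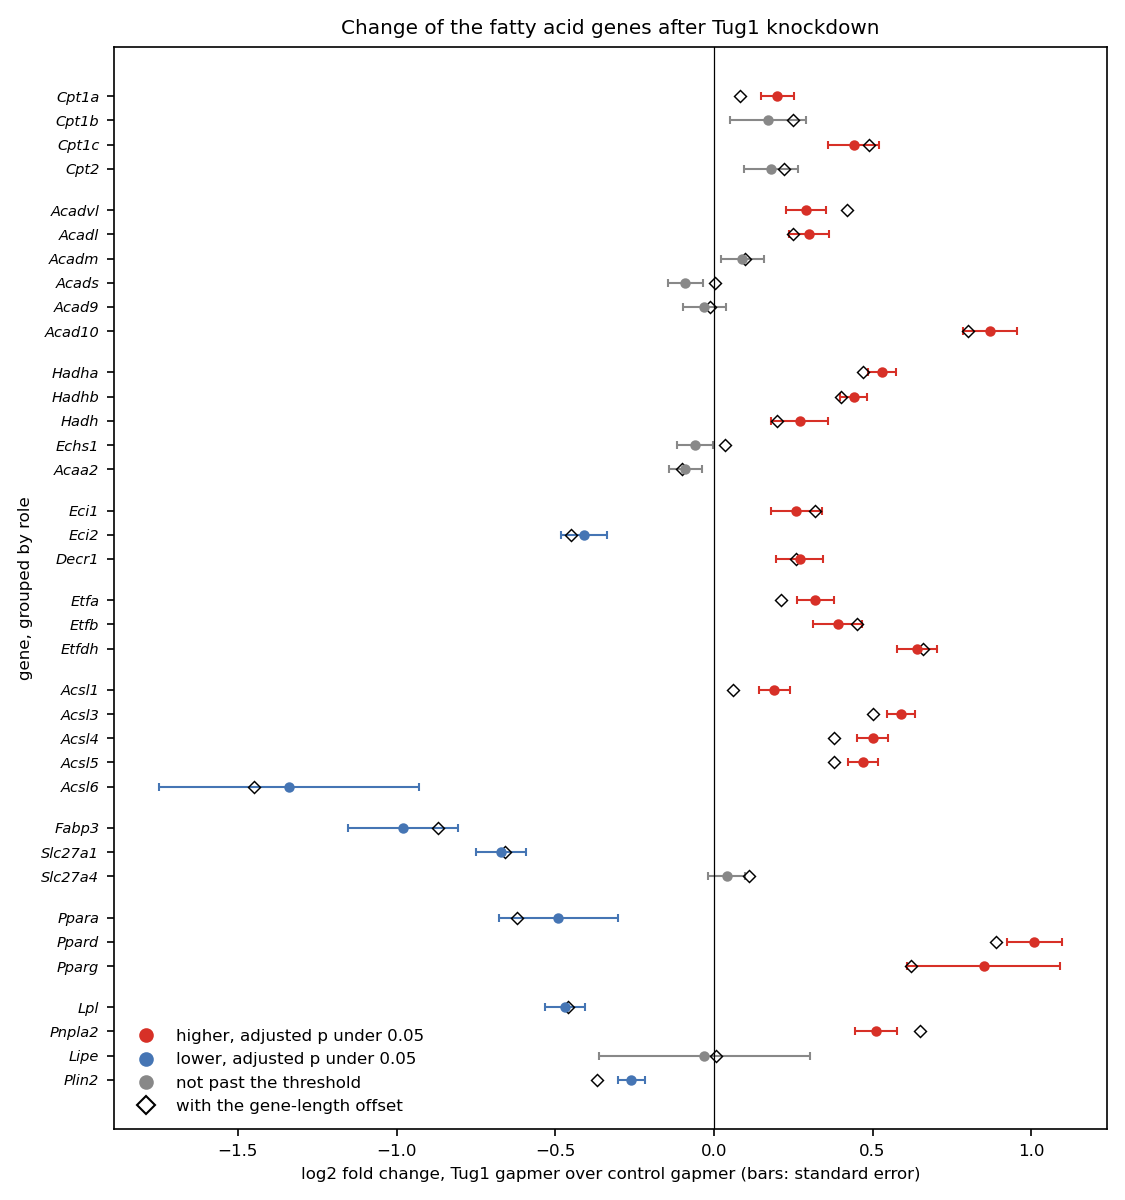
Filled points give the log2 fold change of Tug1 gapmer over control gapmer on the x axis, with bars for the standard error. Red is called higher, blue called lower and grey not called, and open diamonds give the same fit after removing a trend with gene length. Fabp5, Cd36 and Fabp4 are not drawn. Of the genes drawn, Ppard (1.01) lies highest and Acsl6 (-1.34) lowest. With the length trend removed Cpt1a and Acsl1 are close to 0, at 0.08 and 0.06.

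Long-chain acyl-CoA synthetases activate fatty acids and steer them to oxidation or to lipid synthesis, and all 5 were called, 4 higher and 1 lower. Of all tested genes 61.7% were called. Acsl3, an isoform of the reticulum and of lipid droplets, had 305, 297 and 326 CPM in controls and 468, 466 and 466 CPM after knockdown. Its log2 fold change was 0.59 (standard error 0.0447, adjusted p 9.79e-11 in edgeR), the smallest adjusted p of any member. Acsl4, which prefers arachidonic acid, rose from 247 ± 15.0 to 350 ± 10.2 CPM (SD, n = 3; log2 fold change 0.50, adjusted p 6.57e-09 in edgeR), a value just under the limit of 0.5 before rounding. Acsl5, found on mitochondria and the reticulum, rose from 116 ± 0.573 to 160 ± 3.86 CPM (SD, n = 3; 0.47, adjusted p 1.86e-08 in edgeR).

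Acsl1, the main isoform of heart and adipose tissue, rose least, from 133 ± 1.29 to 152 ± 6.10 CPM (SD, n = 3; log2 fold change 0.19, adjusted p 0.00195 in edgeR). With the length trend removed it stood at 0.06 and was not called (adjusted p 0.289). The log2 ratio of Acsl1 to Acsl4 was -0.89 ± 0.0955 in controls and -1.20 ± 0.0184 after knockdown (SD, n = 3). All 3 knockdown libraries had a lower ratio than all 3 controls, a difference of -0.31 (exact permutation p 0.1, two-sided, adjusted p 0.2 over 4 ratios). Acsl6, the isoform of brain and erythroid cells, was nearly absent at 11, 13 and 13 counts in controls and 5 counts in each knockdown library. Its log2 fold change of -1.34 (standard error 0.409) passed in edgeR (adjusted p 0.00685) and not in DESeq2's Wald test (adjusted p 0.0506).

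**Figure D3:**
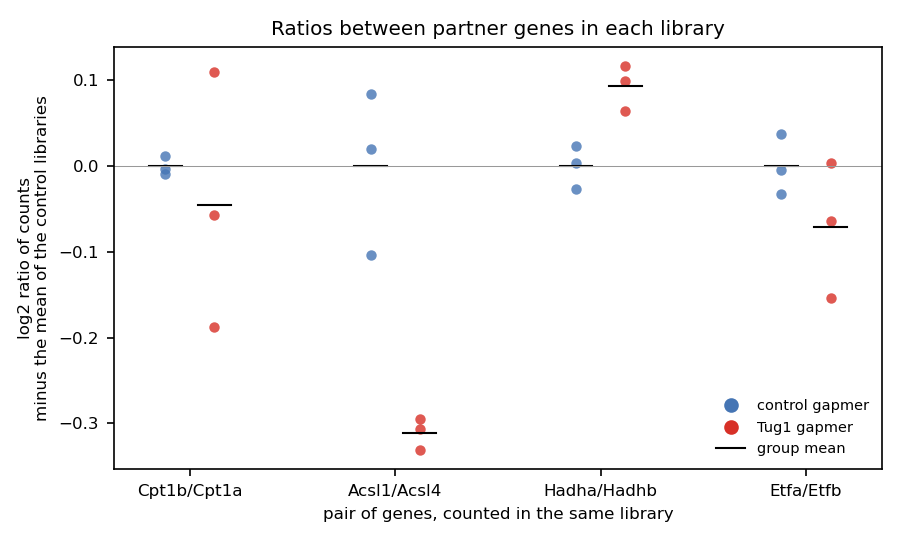
Each point is 1 library, and the y axis gives the log2 ratio of counts of the gene pair named on the x axis, minus the mean of the control libraries. Black bars are group means. The Acsl1/Acsl4 ratio lies lower in all 3 Tug1 gapmer libraries (difference -0.31) and the Hadha/Hadhb ratio slightly higher (0.09), while the groups overlap for Cpt1b/Cpt1a (-0.05) and Etfa/Etfb (-0.07).

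Of 6 members of uptake and binding 4 were tested, of which 0 were higher and 3 lower, where 30.9% of all tested genes were lower. Among those 3, Fabp5 passed the expression filter only through the control libraries. The wider list has a role that also takes in activation, so it is not a like set. Of its 5 tested genes 3 were higher (Slc27a3, Acsf3 and Got2) and 1 lower (Dbi, -0.24, adjusted p 0.00117 in edgeR). The transporter Slc27a3 had 12, 10 and 8 counts in controls and 31, 20 and 21 counts after knockdown (1.19, adjusted p 0.00304 in edgeR). Only in the knockdown group did all 3 libraries of Slc27a3 reach the filter's minimum count of 10, which limits what its call as higher can show. Slc27a3, Got2 and Dbi were named after their values were seen. Slc27a1, the fatty acid transporter FATP1 of muscle and adipose tissue, had 72.9, 91.4 and 76.7 CPM in controls and 45.7, 56.0 and 50.0 CPM after knockdown. The groups did not overlap, and the log2 fold change was -0.67 (standard error 0.0784, adjusted p 1.25e-07 in edgeR). Slc27a4, the related transporter FATP4, was at 81.8 ± 5.40 and 84.2 ± 1.41 CPM (SD, n = 3; log2 fold change 0.04, adjusted p 0.551 in edgeR).

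Fabp3, the heart type fatty acid binding protein, had 6.60, 6.66 and 7.33 CPM in controls and 4.13, 3.55 and 2.72 CPM after knockdown. Its level after knockdown was 50.5% of the control level, with a log2 fold change of -0.98 (standard error 0.174, adjusted p 3.91e-05 in edgeR). Fabp5, the epidermal type, had 22, 11 and 17 counts in controls and 0, 0 and 1 counts after knockdown. The counts summed to 50 in controls and 1 after knockdown, and after scaling to library size the knockdown level was 1.92% of the control level (95% exact binomial interval 0.0477% to 11.2%, for counting error only), and it was called lower (adjusted p 1.34e-06 in edgeR). The RefSeq table lists 2 Fabp5 pseudogenes, and how reads shared with them were counted was not given in the sources used here, so its level is uncertain.

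Cd36 and Fabp4 were hardly detected. Cd36, the main fatty acid translocase of adult heart, had 2 counts in each control library and 1 count in each knockdown library, all under the 3 counts taken as the detection limit, so no fold is given. The RefSeq table lists Cd36l1 and Cd36-ps1 beside Cd36, and how reads shared with them were counted was not given in the sources used here, so its level is uncertain. Fabp4, the adipocyte type, had 4, 6 and 1 counts in controls and 2, 5 and 3 counts after knockdown. No difference was detectable for Cd36 or Fabp4 at this depth.

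The PPAR receptors, which bind fatty acids and switch on the genes of their use, all passed the threshold, in different directions. That threshold was passed by 61.7% of all tested genes. Ppard, the broadly expressed receptor, had 22.2, 22.9 and 19.4 CPM in controls and 39.4, 48.7 and 42.4 CPM after knockdown. No library of one group came near the other, the level was 2.02 times that of controls, and the log2 fold change was 1.01 (standard error 0.0867, adjusted p 7.93e-10 in edgeR), and ran from 0.89 to 1.08 across the 16 alternatives. Pparg, the receptor of adipocyte differentiation, had 1.61, 1.86 and 2.62 CPM in controls and 4.35, 2.88 and 3.78 CPM after knockdown. Its counts were low, and the nearest libraries of both groups differed by little (log2 fold change 0.85, standard error 0.240, adjusted p 0.00377 in edgeR).

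Ppara, the receptor most tied to oxidation in liver and heart, had 6.21, 5.50 and 4.09 CPM in controls and 3.62, 3.62 and 4.00 CPM after knockdown. Control library 3 lay next to the knockdown libraries, and the log2 fold change was -0.49 (standard error 0.187, adjusted p 0.0271 in edgeR). This call was lost in DESeq2's Wald test (adjusted p 0.0702) and when control replicate 1 (0.152), control replicate 2 (0.0745), knockdown replicate 1 (0.0593) or knockdown replicate 2 (0.0593) was left out. The summed level of 6 adipocyte markers was 7.98 to 9.02 CPM in controls and 6.14 to 6.57 CPM after knockdown, and its part in the values of Pparg was not tested.

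Stored fat is coated by perilipins and released by lipases. Pnpla2, which encodes the adipose triglyceride lipase that opens this release, had 74.3, 76.9 and 62.7 CPM in controls and 103, 106 and 97.0 CPM after knockdown, a log2 fold change of 0.51 (standard error 0.0657, adjusted p 4.39e-07 in edgeR). Plin2, the ubiquitous droplet coat protein, had 358, 368 and 360 CPM in controls and 294, 312 and 299 CPM after knockdown, a log2 fold change of -0.26 (standard error 0.0435, adjusted p 1.52e-05 in edgeR). The lipase was higher and the coat gene lower in every knockdown library than in every control. Lpl, the lipoprotein lipase that frees fatty acids outside the cell, fell from 54.5 ± 1.87 to 39.5 ± 1.78 CPM (SD, n = 3; -0.47, adjusted p 1.27e-06 in edgeR). Lipe, the hormone-sensitive lipase, was near 1 CPM in both groups (log2 fold change -0.03, standard error 0.333, adjusted p 0.95 in edgeR).

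A list of 96 other genes of fatty acid transport, oxidation, control and storage was read in the same way. It was chosen with earlier results of these data known, so it is no independent test of the pattern. Of these, 73 were tested and 56 (76.7%) were called, against 61.7% of all tested genes, and their median log2 fold change was 0.18. By direction 34 (46.6%) were higher and 22 (30.1%) lower, where 30.8% of all tested genes were higher and 30.9% lower. At a log2 fold change of 0.5 or more in either direction 25 (34.2%) were called, near the 31.0% of all tested genes. The carriers of carnitine at both membranes rose. Slc25a20, the carnitine-acylcarnitine carrier of the inner membrane that works with Cpt1 and Cpt2, had 49.0, 47.3 and 53.3 CPM in controls and 69.3, 75.2 and 71.1 CPM after knockdown (log2 fold change 0.53, adjusted p 1.15e-07 in edgeR). Slc22a5, the carnitine transporter of the plasma membrane, rose from 13.5 ± 0.484 to 22.6 ± 2.20 CPM (SD, n = 3; 0.74, adjusted p 5.44e-07 in edgeR). Over the 7 tested genes of carnitine supply, 3 (42.9%) were higher and 2 (28.6%) lower.

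Malonyl-CoA, made by acetyl-CoA carboxylases and removed by malonyl-CoA decarboxylase, blocks Cpt1. Acaca, the carboxylase of lipid synthesis, rose from 90.8 ± 3.37 to 148 ± 8.72 CPM (SD, n = 3; log2 fold change 0.70, adjusted p 1.9e-10 in edgeR), and this value was 0.35 with the length trend removed. Acacb, the mitochondrial carboxylase, was low at 2.68, 2.63 and 2.78 CPM in controls and 2.97, 4.36 and 2.79 CPM after knockdown, and did not pass (0.32, adjusted p 0.213 in edgeR). That value rested on knockdown replicate 2, without which it was 0.0984, and it was 0.11 with the length trend removed. Mlycd, the decarboxylase, was at 0.18 (standard error 0.0899, adjusted p 0.0809 in edgeR). It was called higher with the length trend removed (0.23, adjusted p 0.0262), with library totals (0.24, adjusted p 0.0258) and without control replicate 1, control replicate 2 or knockdown replicate 1 (adjusted p 0.0472, 0.0324 and 0.0499). Over all 16 alternatives its log2 fold change ran from 0.0572 to 0.26, with adjusted p up to 0.54.

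Receptor partners and coactivators were mostly higher, with 6 (85.7%) higher and 1 (14.3%) lower of 7 tested. The shares over all tested genes were 30.8% and 30.9%. Ppargc1b, a coactivator of mitochondrial genes, rose from 4.63 ± 1.08 to 8.83 ± 0.774 CPM (SD, n = 3; log2 fold change 0.93, adjusted p 2.84e-05 in edgeR). Ppargc1a, its better known relative in heart, had 5, 3 and 0 counts in controls and 0, 1 and 1 counts after knockdown, too few to test. Rxra, the partner of PPAR receptors on DNA, was slightly higher (0.15, adjusted p 0.0189 in edgeR), and at -0.015 with the length trend removed. Its call was also lost without knockdown replicate 2 (adjusted p 0.1), without control replicate 1 (0.089) and with no filter beyond 1 count (0.0505), and 10 of 16 alternatives kept it.

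Textbook PPAR targets did not move one way: of 6 tested, 3 (50%) were higher and 2 (33.3%) lower, against 30.8% and 30.9% of all tested genes. Pdk4, the kinase that turns pyruvate oxidation down, had 9.66, 8.13 and 9.18 CPM in controls and 17.3, 14.1 and 14.9 CPM after knockdown (log2 fold change 0.78, adjusted p 4.48e-06 in edgeR). Angptl4, a secreted inhibitor of lipoprotein lipase, had 17.3, 19.0 and 14.3 CPM in controls and 11.5, 10.9 and 10.3 CPM after knockdown (-0.63, adjusted p 4.88e-05 in edgeR). This inhibitor of Lpl fell along with Lpl itself, while Lmf1, which matures the lipase in the reticulum, rose (0.47, adjusted p 7.25e-05 in edgeR; 0.29 with the length trend removed). Its relative Lmf2, named after its values were seen, fell (-0.21, adjusted p 0.00282 in edgeR).

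Triglyceride synthesis and droplet genes were split, with 5 (27.8%) higher and 8 (44.4%) lower of 18 tested, against 30.8% and 30.9% of all tested genes. Agpat2, an acyltransferase of glycerolipid synthesis, fell from 30.6 ± 4.07 to 8.33 ± 0.275 CPM (SD, n = 3; log2 fold change -1.87, adjusted p 1.24e-12 in edgeR). The next enzyme of the path, Lpin1, a phosphatidate phosphatase that also serves as a nuclear coactivator, rose from 15.5 ± 0.972 to 54.9 ± 4.56 CPM (SD, n = 3; 1.83, adjusted p 2e-14 in edgeR); it was singled out after its values were seen. These were the lowest and the highest log2 fold changes among the tested genes of the list. Of the remaining roles, the changed genes with the largest fold changes at 5 CPM or more were Acot13 (0.88), a mitochondrial acyl-CoA thioesterase, Acsf3 (0.61), a mitochondrial malonyl-CoA synthetase, and Bdh1 (0.54), the ketone body dehydrogenase, with edgeR adjusted p of 4.06e-06, 6.49e-06 and 5.02e-08.

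**Figure D4:**
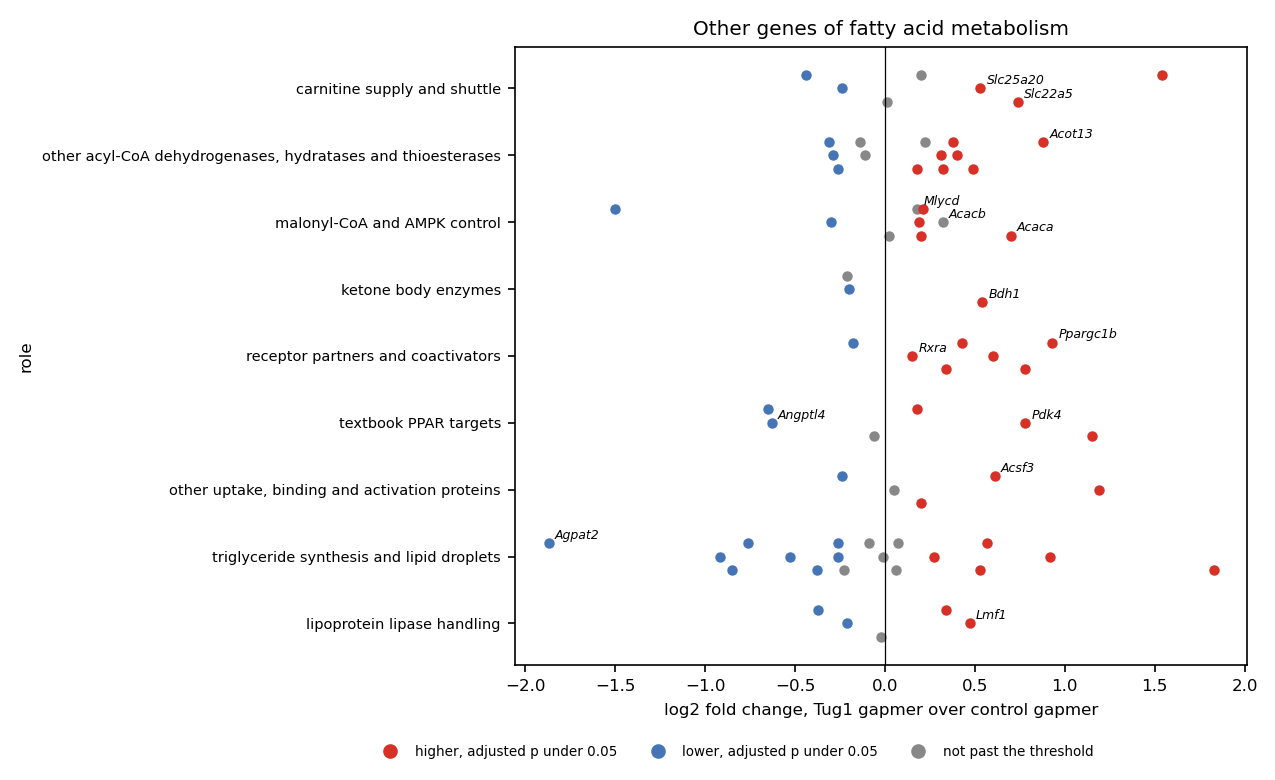
Each point is 1 of the 73 tested genes of the wider list, with its log2 fold change of Tug1 gapmer over control gapmer on the x axis and its role on the y axis. Colours give the call as in the legend, and the genes chosen by the naming rule are labelled. Agpat2 lies lowest at -1.87, and receptor partners and coactivators are the role with 6 higher and 1 lower.

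Promoter windows, from 250 bases before to 50 bases after a gene start on GRCr8, were available for 29 of the 39 members. The core motif of nuclear receptors, AGGTCA on either strand, was present in the windows of 6 members (20.7%), against 16.2% of all 33469 windows. They were Acadvl, Hadhb and Eci1, called higher, Eci2 and Slc27a1, called lower, and Echs1, not called. The direct repeat bound by PPAR receptors (the core motif repeated in one direction with 1 base between the copies) and the element of estrogen-related receptors (TCAAGGTCA, which also contains it) were in 0 of the 29, against 0.0538% and 0.433% of all windows. The GC box GGGCGG was in 20 of the 29 (69.0%), 11 called higher, 4 lower and 5 not called, against 33.1% of all windows. These shares are not like for like. All windows were counted singly, whether or not their gene was tested here, while members were counted per gene, and 2 members had more than 1 window. Whether tested genes at large carry the GC box as often was not examined. Stretches around the core motif are shown because they let members of both directions be compared, with the motif in capitals, on the gene's strand.
Acadvl, chr10:55236859-55236884, minus strand: ggatcaccctAGGTCAagtagaatac
Acadvl, chr10:55236707-55236732, minus strand: acgggagaagAGGTCAgtggtcaagg
Eci1, chr10:13961146-13961171, plus strand: tggctgatctTGACCTcctgaagggc
Slc27a1, chr16:18312717-18312740, plus strand: gtcctcatTGACCTctggctgtcc
Eci2, chr17:30075773-30075798, plus strand: gagctcagttTGACCTcagcatccag
In Acadvl the motif nearest the gene began 17 bases before the start, written -17, and in Eci2 it began at base 18 after it. Members with the motif were thus found among those that rose, those that fell and those not called, and a match is a description of these letters alone. The stretch between Hadhb and Hadha held 0 copies of AGGTCA. The Hadhb window is counted from another annotated start than the edge of the gene model that bounds this stretch.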

How the data were processed

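The deposited table holds unnormalized read counts of each gene in 6 poly-A selected, stranded libraries (RNA integrity number at least 9, 500 ng RNA input, per the labels' protocols). FastQC 0.11.7, fastp 0.14.1 and STAR 2.5 are named in the submitters' processing notes; the counter, genome build, annotation and use of strand are not given in the sources used here. In R 4.3.3, edgeR 4.0.16 kept genes by its expression filter (minimum count 10, minimum total 15), which left 14216 genes with 99.8% of counts, scaled libraries by TMM (factors 0.979 to 1.02) and fitted the quasi-likelihood test, two-sided, without a block. CPM values use the TMM scale and are not per length, so they compare a gene between libraries, not genes with each other. The limit of 3 counts corresponds to 0.217 to 0.232 CPM. Within groups, libraries differed by more than sampling noise (chi-square per degree of freedom 2.15 to 3.55, against 37.2 to 41.2 between groups). This spread may be technical and does not show that the libraries came from separate cultures. Each library entered the fit as a replicate. Scripts were tested on simulated data.

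Values are given per library for members called at a log2 fold change of 0.5 or more in either direction and for 13 preset members. For the wider list, the changed gene with the largest fold change per role at a mean of at least 5 CPM and 7 preset genes were named. Members and lists were chosen with earlier results of these data known. Alternatives were DESeq2 size factors, library totals, DESeq2 1.42.0, limma-voom (limma 3.58.1), filters of 1 count or 1 CPM, an adjusted p under 0.01, a replicate block, leaving out each library, and an offset for a trend with genomic span (RefSeq, GRCr8; lowess span 0.3), available for 12837 tested genes (90.3%) and all 37 tested members. Sequences are from RefSeq, matched by symbol.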

Additional observations from a re-analysis of the deposited data

How the results depend on the processing

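The number of members called was 28 and ran from 26 to 29 over the 16 alternatives, and from 26 to 28 over the fits that omit 1 library; those with a log2 fold change of 0.5 or more in either direction ran from 9 to 13. All tested genes called ran from 7353 to 8987 (8128 to 8410 with a library left out), and wider-list genes from 50 to 58 (53 to 55). Of 52 named genes, 38 kept direction and call in every alternative in which they were tested. Over 830 combinations of gene and alternative 21 kept direction but lost their call, 10 kept direction and gained one, and 14 changed sign. No sign change involved a called value except that of Rxra with the length offset (-0.015, and -0.0155 with the replicate block). There the call of Rxra was lost as well (adjusted p 0.823 and 0.8 in edgeR), which the 21 do not include. With the length offset, alone and with the block, Acads was at 0.00358 and 0.00338, Echs1 at 0.0341 and 0.0337 and Lipe at 0.00615 and 0.00504. With library totals Acad9 was at 0.0268 and Lipe at 0.0259. Omitting 1 library gave -0.31 to 0.16 for Lipe (0.15 without knockdown replicate 1, 0.0502 without knockdown replicate 2, 0.16 without control replicate 3) and -0.0101 to 0.0696 for Slc27a4, lowest without control replicate 3. Under the same offset, in both fits, the ratio Cpt1b/Cpt1a moved from -0.05 to 0.16 and Etfa/Etfb from -0.07 to -0.24; left-out libraries gave -0.12 to 0.026 and -0.11 to -0.0303, and -0.36 to -0.27 for Acsl1/Acsl4 and 0.0799 to 0.11 for Hadha/Hadhb. The offset acts through gene span by construction; the cause of the other changes was not tested. A mean of at least 1 CPM left Acsl6 and Fabp5 untested. Replicate numbers did not pair the libraries (correlations of deviations -0.00792, 0.0408 and 0.0368 for numbers 1 to 3), and with the replicate block 28 members were called and Mlycd gained a call (0.19, adjusted p 0.0388). Depth limits Acsl6, Fabp5, Lipe and Pparg, at under 5 CPM with 12.9 to 13.8 counts per CPM.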

Other observations

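Eci3, a close relative of Eci2 and a gene outside the lists, was looked up after the fall of Eci2 had been seen. It had 71.7, 68.4 and 68.2 CPM in control libraries 1 to 3 and 62.6, 61.5 and 60.0 CPM in knockdown libraries 1 to 3, with no overlap between the groups. Its log2 fold change was -0.18 (standard error 0.056, adjusted p 0.00813 in edgeR), smaller than the -0.41 of Eci2. How reads shared between these relatives were counted was not given in the sources used here.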
